A study of Mus musculus with 51 samples.

Results

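CD103-CD69+ CD8+ T cells were compared with CD103-CD69- CD8+ T cells from untreated mouse mammary tumors over weeks 2, 4 and 6. The comparison used 16 of the 51 libraries of the study: the 8 titled Week2, Week4 or Week6 Tumor CD103-CD69+ and the 8 titled Week2, Week4 or Week6 Tumor CD103-CD69-, matched to the deposited columns by library code. CD103-CD69+ cells are called SP (single positive) and CD103-CD69- cells DN (double negative). There were 3 SP and 3 DN libraries at week 2, 2 SP and 3 DN libraries at week 4, and 3 SP and 2 DN libraries at week 6, and each week had equal weight. Week 1 was left out of the pooled difference. Both subsets were CD8+ cells purified by flow cytometry from AT3-OVA tumors, with the treatment given as none. AT3-OVA cells are mammary carcinoma cells of the mouse made to carry ovalbumin, a model antigen. The labels state neither mouse strain, age or sex, nor whether a library came from 1 animal or a pool, so the p-values measure the spread between these samples. Set beside them were 10 CD103+CD69+ (DP) libraries of the same weeks, 3 SP and 2 DN libraries of week 1, and, from a separate table, 3 SP and 2 DN libraries from day 40 AT3-OVA tumors under immune checkpoint blockade, whose agents the labels do not name. The mRNA was read with QuantSeq 3' mRNA-Seq FWD, a method that counts tags near the 3' end of transcripts.

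CD69 is a surface protein of recently activated and of tissue-resident T cells. It binds the sphingosine-1-phosphate receptor S1PR1 and takes it off the surface, so that the cell no longer follows the lipid gradient that leads out of tissue. In circulating and central memory T cells the transcription factor KLF2 drives S1pr1 and other genes of recirculation, while TCF-1 (Tcf7) and LEF1 mark naive and stem-like memory states. CD103 is the integrin chain encoded by Itgae and binds E-cadherin, an adhesion protein of epithelial cells.

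All values are the authors' normalized values of 10560 genes, read as log2, and a difference is SP minus DN on that scale. Levels are not abundances in this table and cannot be compared between genes, the read depth is unknown, and no value marks absence. Gene names and positions are those of GENCODE M21 on GRCm38, the build also called mm10. DN week 4 replicates 1 and 2 were nearly identical: their root mean square difference over genes was 0.0400, where the next closest pair of 1 group differed by 0.197 and the farthest by 0.729. They were counted once in each SD, but as 2 libraries in each SE and adjusted p unless stated. Counts with the 2 averaged are given for some results here and for others in the closing section. The library codes fall in 2 runs. Codes 5 to 42 hold 7 SP and 0 DN libraries, and codes 46 to 75 hold 1 SP library (week 6 replicate 3) and 8 DN libraries. What a run stands for is not in the labels, so subset and run can be told apart only through that library and the other groups of the table.

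Cd69 itself had values of 1.31, 0.78 and 0.59 at week 2, -0.15 and 0.73 at week 4, and -0.21, 0.05 and 0.13 at week 6 in SP cells, against -0.46, 0.44 and -0.14 at week 2, -0.44, -0.38 and -0.59 at week 4, and -0.95 and -0.47 at week 6 in DN cells. It was higher in SP cells, by 0.81 (SE 0.23, adjusted p = 0.0176). In bulk libraries, fewer cells of a type and less RNA per cell cannot be told apart. The groups overlapped, since the DN library at 0.44 stood above 4 SP libraries. The difference missed the threshold when SP week 4 replicate 2 or DN week 6 replicate 1 was left out, with an adjusted p of up to 0.081, and with the code run as a term (adjusted p = 0.189). Itgae, although both subsets were sorted as CD103-, had values of 13.88, 14.28 and 14.41 at week 2, 13.36 and 15.11 at week 4, and 13.09, 12.99 and 12.93 at week 6 in SP cells, against 10.98, 12.12 and 11.92 at week 2, 11.64, 11.59 and 12.69 at week 4, and 11.07 and 11.40 at week 6 in DN cells. Every SP library stood above every DN library. Its mean was 13.76 ± 0.79 (SD, n = 8) in SP cells and 11.69 ± 0.61 (SD, n = 7) in DN cells, and the difference with weeks weighted equally was 2.18 (SE 0.35, adjusted p = 0.000184). Havcr2, which encodes the inhibitory receptor TIM-3, had a lowest, median and highest value of 11.41, 12.28 and 12.50 in SP cells, against 10.95, 11.28 and 11.99 in DN cells, and was higher in SP cells by 0.81 (SE 0.18, adjusted p = 0.00412). The groups overlapped at week 2, and the adjusted p was 0.13 with the code run as a term. Lef1 had values of -2.49, -1.25 and -1.89 at week 2, -2.84 and -2.81 at week 4, and -2.94, -2.23 and -2.53 at week 6 in SP cells, against 0.22, -0.81 and -0.15 at week 2, 0.18, 0.23 and -0.23 at week 4, and 0.30 and 0.37 at week 6 in DN cells, without overlap and with a difference of -2.47 (SE 0.26, adjusted p = 2.31e-06). Cd69 lies at chr6:129267325-129275436 on the minus strand, Itgae at chr11:73090583-73147446 on the plus strand, Havcr2 at chr11:46454935-46481255 on the plus strand and Lef1 at chr3:131110471-131224356 on the plus strand.

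Over weeks 2 to 6, limma with Benjamini-Hochberg adjustment called 1792 of 10560 genes (17.0%) at an adjusted p below 0.05, of which 880 (8.33%) were higher and 912 (8.64%) lower in SP cells. The median difference of all genes was 0.01. After quantile normalization 1048 genes were called higher and 876 lower. Of the genes called higher, 786 were higher at each of the 3 weeks, and of those called lower, 857 were lower at each. The call rests on the mean of these weekly differences, which favours the same sign at each week. No share over all genes is given for these counts. The 8 SP and 8 DN libraries did not overlap for 126 of the genes called higher and 171 of those called lower, where 2.92% of all genes had no overlap, 1.25% with SP above and 1.67% with SP below. With the code run as a term in the fit, 354 genes were called, 155 higher and 199 lower, of which 353 were among the 1792, and all 1792 kept their direction, as did 88% of all genes. Their median differences were then 0.55 for the genes called higher and -0.68 for those called lower, against 0.52 and -0.70 without the term. Inside codes 46 to 75 at week 6, 1 SP library stands against 2 DN libraries and is assumed to vary like the other groups. There 96.6% of the 1792 genes kept their direction, against 74.7% of all genes. Both fits used libraries that chose the 1792 genes, so a kept direction was favoured in advance.

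**Figure D1:**
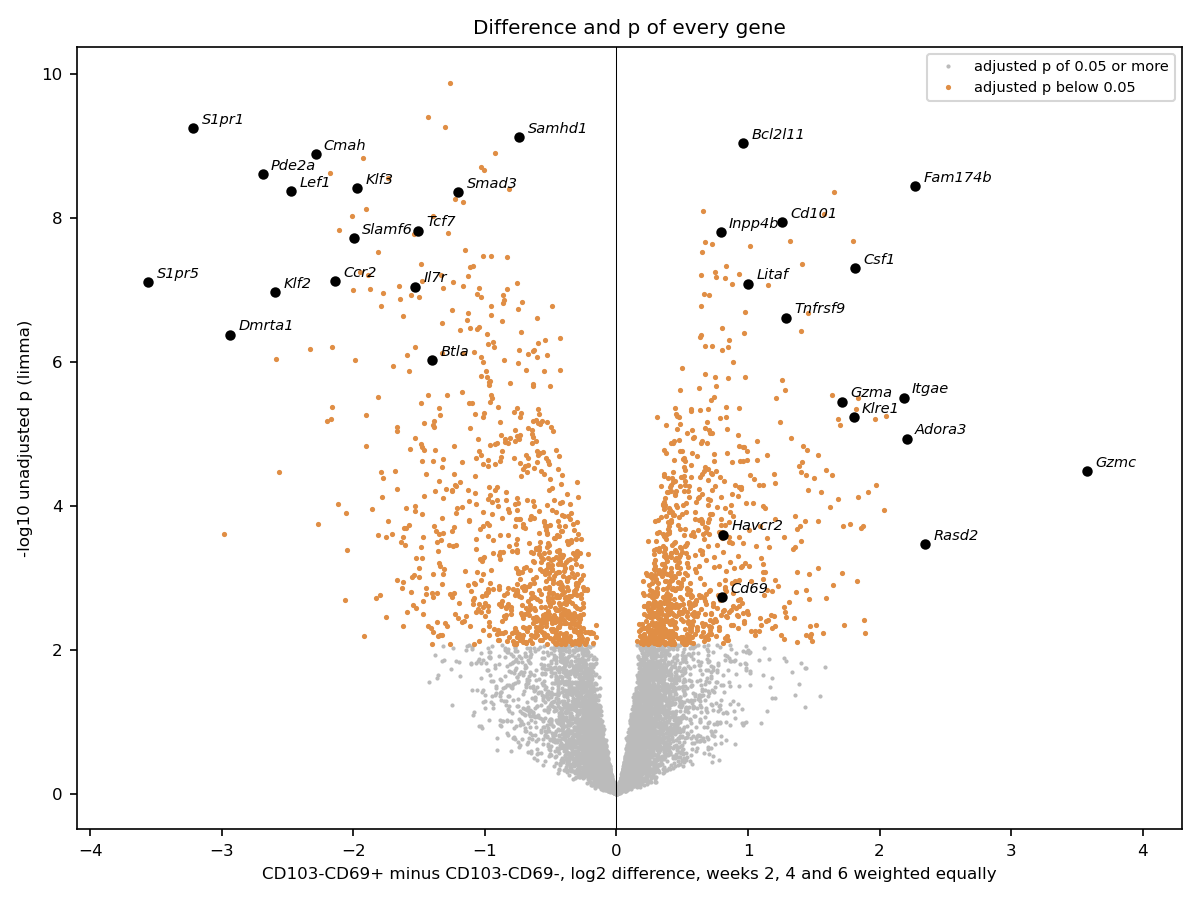
Log2 difference (SP minus DN, weeks 2, 4 and 6 weighted equally, horizontal axis) against -log10 of the unadjusted limma p (vertical axis) for 10560 genes; orange points are the 1792 called genes and black points are labelled genes. S1pr1 and S1pr5 lie farthest to the left among the labelled genes and Gzmc farthest to the right.

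The genes of tissue egress and lymph node homing were lower in SP cells for 12 of 17 measured members and higher for none, with a median of -0.98, where 8.64% of all genes were lower and the median of all genes was 0.01. S1pr1, whose product senses the exit gradient, had values of -5.18, -3.97 and -4.78 at week 2, -5.43 and -5.83 at week 4, and -4.12, -4.45 and -5.02 at week 6 in SP cells, against -1.76, -2.29 and -1.67 at week 2, -1.81, -1.77 and -2.54 at week 4, and -1.31 and -1.10 at week 6 in DN cells, a difference of -3.22 (SE 0.30, adjusted p = 1.52e-06), and averaged -4.85 ± 0.64 (SD, n = 8) in SP cells and -1.78 ± 0.51 (SD, n = 7) in DN cells. The groups were more than 1 unit apart, with the highest SP value at -3.97 and the lowest DN value at -2.54. S1pr5, a second sphingosine-1-phosphate receptor known from NK cells and effector T cells, had values of -3.75, -1.53 and -2.48 at week 2, -0.76 and -2.95 at week 4, and -0.80, 0.34 and -0.48 at week 6 in SP cells, against 2.19, 1.48 and 0.92 at week 2, 2.92, 2.98 and 1.31 at week 4, and 1.85 and 2.14 at week 6 in DN cells, a difference of -3.56 (SE 0.44, adjusted p = 1.3e-05). Its SP values spread more widely than those of S1pr1, and the groups still did not overlap. Klf2 differed by -2.59 (SE 0.33, adjusted p = 1.47e-05) and Klf3, a related zinc-finger factor, by -1.97 (SE 0.21, adjusted p = 2.31e-06). Klf2 had values of -0.34, -0.05 and -1.07 at week 2, -2.57 and -1.02 at week 4, and -2.81, -3.05 and -2.47 at week 6 in SP cells, against 1.19, 0.49 and 1.63 at week 2, 0.50, 0.56 and 0.14 at week 4, and 1.12 and 1.31 at week 6 in DN cells. Its SP values were lowest at week 6, and its differences at the 3 weeks were -1.59, -2.20 and -3.99. Ccr7, the chemokine receptor of lymph node entry, had a lowest, median and highest value of -0.86, -0.35 and 1.46 in SP cells, against 0.14, 1.29 and 1.85 in DN cells, with overlap and a difference of -1.37 (adjusted p = 0.00379). S1pr4 differed by -0.63 (adjusted p = 0.0129), the integrin genes Itgb7, Itgb1 and Itga4 by -1.95 (adjusted p = 1.13e-05), -0.74 (adjusted p = 5.55e-05) and -0.64 (adjusted p = 0.000375), and the surface-antigen genes Ly6c2 and Ly6a by -1.91 (adjusted p = 3.47e-06) and -0.98 (adjusted p = 4.83e-05). Ly6c2 has a close copy, Ly6c1, and counting could split reads between them. The 5 members not called were Itgal, Cd52, Selplg, Arhgef1 and Cd44, with differences between -0.13 and 0.11. The count stayed at 12 when any 1 of the 16 libraries was left out or the 2 near-identical libraries were averaged, and was 10 with the code run as a term and 11 without week 4.

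The promoters of 3 of these genes are shown because Klf2, S1pr5 and Klf3 were all lower in SP cells and KLF factors are known to bind CACCC boxes. S1pr5 and Klf3 were picked after their values were seen. Of the 12 called genes 8 had an entry in the RefSeq promoter table (GRCm38.p6), which holds 250 bases before and 50 after each start, and S1pr1 had none. Capitals mark CACCC, or GGGTG where the box lies on the other strand, and the windows run 5' to 3' on the gene's strand. They are chr8:72318812-72319111 (plus strand) for Klf2, chr9:21248394-21248693 (minus strand) for S1pr5 and chr5:64803271-64803570 (plus strand) for Klf3.
Klf2: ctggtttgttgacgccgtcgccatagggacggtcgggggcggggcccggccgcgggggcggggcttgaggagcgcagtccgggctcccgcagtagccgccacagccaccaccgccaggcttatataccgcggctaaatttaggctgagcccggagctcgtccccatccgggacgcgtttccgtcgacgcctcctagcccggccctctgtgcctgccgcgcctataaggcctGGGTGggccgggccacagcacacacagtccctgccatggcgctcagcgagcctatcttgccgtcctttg
S1pr5: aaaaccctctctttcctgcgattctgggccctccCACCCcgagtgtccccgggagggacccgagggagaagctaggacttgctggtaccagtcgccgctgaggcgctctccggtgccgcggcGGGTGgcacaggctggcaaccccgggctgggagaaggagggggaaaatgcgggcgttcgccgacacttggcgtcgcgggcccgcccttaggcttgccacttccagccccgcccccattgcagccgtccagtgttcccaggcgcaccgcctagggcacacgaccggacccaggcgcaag
Klf3: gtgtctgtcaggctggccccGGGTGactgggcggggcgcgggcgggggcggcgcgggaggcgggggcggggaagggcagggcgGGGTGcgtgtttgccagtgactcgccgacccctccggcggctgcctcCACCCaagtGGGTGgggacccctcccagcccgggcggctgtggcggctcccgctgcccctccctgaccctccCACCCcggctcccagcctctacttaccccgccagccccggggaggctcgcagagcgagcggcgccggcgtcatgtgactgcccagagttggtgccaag
The Klf2 window held 0 CACCC and 1 GGGTG, that of S1pr5 1 and 1, and that of Klf3 2 and 3. All 8 genes with an entry held the box in at least 1 window, as did 59.8% of the 27025 genes of the table, and 57.5% of all 32851 windows held it. A match is a run of letters and does not show binding.

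Of 16 measured regulators of naive and memory states 10 were lower in SP cells and none was higher, with a median of -0.53. Of all genes 8.64% were lower. Lef1, given above, and Tcf7 encode the paired high-mobility-group factors of this state, and Tcf7 had values of 3.95, 4.09 and 4.24 at week 2, 2.90 and 2.59 at week 4, and 3.04, 3.01 and 3.08 at week 6 in SP cells, against 4.97, 4.41 and 4.85 at week 2, 4.90, 4.91 and 4.31 at week 4, and 4.93 and 4.98 at week 6 in DN cells, a difference of -1.51 (SE 0.17, adjusted p = 5.33e-06), without overlap. The SP values of Tcf7 lay about 1 unit higher at week 2 than at weeks 4 and 6. Slamf6, a surface receptor used to mark stem-like exhausted T cells, had values of 5.33, 5.02 and 3.86 at week 2, 3.44 and 2.33 at week 4, and 3.58, 4.05 and 3.91 at week 6 in SP cells, against 5.95, 5.63 and 6.05 at week 2, 5.92, 6.0 and 5.61 at week 4, and 5.73 and 5.77 at week 6 in DN cells, a difference of -2.0 (SE 0.23, adjusted p = 6.01e-06). Its groups did not overlap either. Il7r, the interleukin-7 receptor chain that keeps memory cells alive, had a lowest, median and highest value of 2.84, 3.14 and 3.62 in SP cells, against 4.08, 4.80 and 4.98 in DN cells, a difference of -1.53 (adjusted p = 1.35e-05). Satb1, Myb, Foxp1, Foxo1, Bach2 and Nsg2 made up the rest of the called members. Among them Satb1, a chromatin organizer, differed by -0.90 (adjusted p = 0.000234), Foxo1, a factor known to drive Klf2 and Il7r, by -0.51 (adjusted p = 0.00114), and Bach2, a repressor of effector genes, by -0.55 (adjusted p = 0.0395). The count was 6 with the code run as a term and 8 without week 4.

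**Figure D2:**
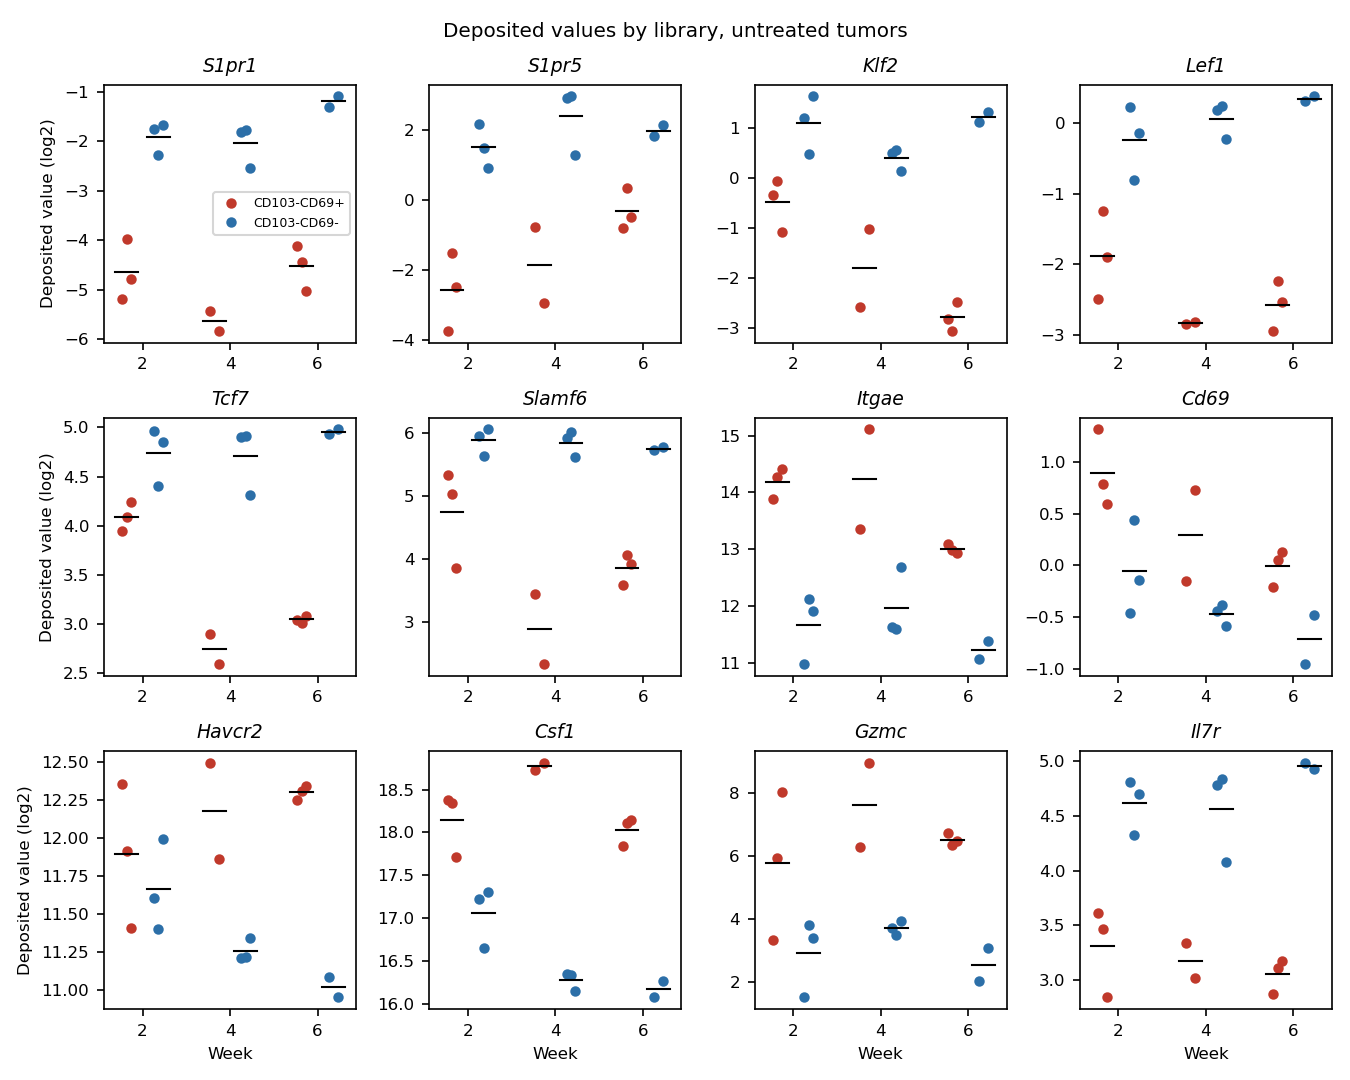
Deposited log2 values (vertical axis) of 12 genes in each library by week (horizontal axis), with SP libraries in red to the left and DN libraries in blue to the right at each week; bars are group means. S1pr1, S1pr5, Klf2, Lef1, Tcf7, Slamf6 and Il7r lie lower in every SP library than in any DN library, Itgae and Csf1 lie higher, and Cd69, Havcr2 and Gzmc overlap.

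Chemokine receptors and integrins moved in both directions, with 8 of 19 members lower and 4 higher in SP cells. Of all genes 8.64% were lower and 8.33% higher. Ccr2, a receptor of inflammatory recruitment, had values of 3.92, 4.54 and 4.52 at week 2, 3.91 and 3.46 at week 4, and 4.58, 4.04 and 4.67 at week 6 in SP cells, against 5.87, 5.74 and 5.76 at week 2, 6.62, 6.64 and 6.34 at week 4, and 6.78 and 6.31 at week 6 in DN cells, a difference of -2.14 (SE 0.27, adjusted p = 1.3e-05). No SP library reached the lowest DN library. Cxcr3, the receptor for interferon-induced chemokines, differed by -1.06 (adjusted p = 1.52e-05) and Cxcr5, the follicle-homing receptor, by -1.23 (adjusted p = 0.00132). Higher in SP cells, beside Itgae, were Itgav (0.97, adjusted p = 3.78e-05), whose product activates TGF-beta as part of integrin dimers, Itga1 (0.71, adjusted p = 0.0157), a collagen-binding chain of resident cells, and Cxcr6 (0.63, adjusted p = 0.00296), a receptor of tissue T cells. Among 25 cytokine receptor genes 8 were higher and 5 lower. Il2rb and Il21r, chains of the interleukin-2 and interleukin-15 receptor and of the interleukin-21 receptor, differed by 0.86 (adjusted p = 4.43e-05) and 0.64 (adjusted p = 3.9e-05). Cish, a feedback inhibitor of cytokine signalling, differed by 0.67 (adjusted p = 0.000101). Il6ra, an interleukin-6 receptor chain, was lower, at -1.58 (adjusted p = 9.23e-05). The count of 5 lower fell to 3 without any 1 of 5 libraries: SP week 2 replicate 3, SP week 4 replicate 2, DN week 2 replicate 1 or 3, or DN week 4 replicate 2.

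Genes of tissue residency were higher in SP cells for 17 of 24 measured members and lower for 1, with a median of 0.80. Of all genes 8.33% were higher. The list includes Itgae and Cd69. Inpp4b, a phosphoinositide phosphatase, had values of 9.49, 9.48 and 9.33 at week 2, 9.86 and 9.77 at week 4, and 9.62, 9.63 and 9.50 at week 6 in SP cells, against 8.92, 9.12 and 9.0 at week 2, 8.67, 8.70 and 8.69 at week 4, and 8.66 and 8.85 at week 6 in DN cells, a difference of 0.79 (SE 0.09, adjusted p = 5.36e-06). Litaf, a lysosomal membrane regulator known from resident-cell signatures, had values of 6.76, 7.44 and 7.2 at week 2, 6.96 and 7.47 at week 4, and 6.69, 6.66 and 6.67 at week 6 in SP cells, against 6.51, 6.44 and 6.32 at week 2, 5.62, 5.62 and 5.98 at week 4, and 5.94 and 5.79 at week 6 in DN cells, a difference of 1.00 (SE 0.13, adjusted p = 1.32e-05). Neither gene overlapped between the groups, and the highest SP value of each was at week 4. Osgin1, an oxidative-stress response gene, differed by 1.68 (adjusted p = 0.000299) and Zfp683, which encodes the residency factor Hobit, by 1.41 (adjusted p = 0.00077). Osgin1 had a lowest, median and highest value of 15.91, 16.06 and 17.10 in SP cells, against 13.72, 14.71 and 15.58 in DN cells, and Zfp683 had a lowest, median and highest value of 14.59, 15.08 and 16.94 in SP cells, against 13.50, 13.95 and 15.17 in DN cells. Osgin1 did not overlap and Zfp683 did. Rgs1 and Rgs2, which damp signalling of G-protein-coupled receptors, differed by 0.98 and 1.11 (adjusted p = 0.002 and 0.00998), Ahr, the aryl hydrocarbon receptor, by 0.89 (adjusted p = 0.0215), and Hic1, a transcriptional repressor, by 1.14 (adjusted p = 0.0299). Runx3 and Prdm1, further transcription factors of residency, were not called, at 0.19 and 0.27. The member that was lower was Fabp5, a fatty-acid-binding protein, at -1.32 (adjusted p = 0.000736). The count of 17 became 15 with the near-identical libraries averaged, 11 without SP week 4 replicate 2, 6 without week 4 and 5 with the code run as a term.

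**Figure D3:**
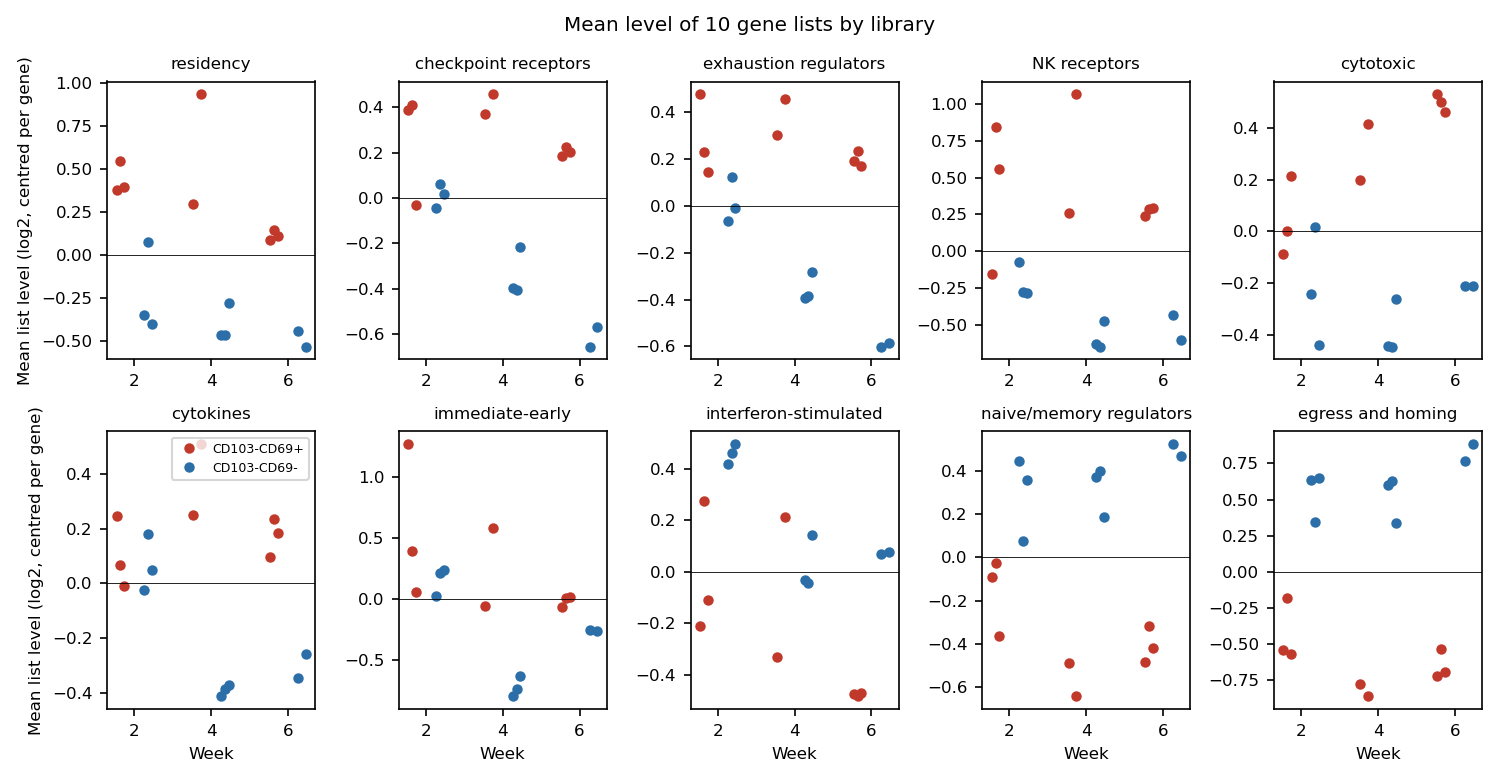
Mean log2 level of 10 gene lists in each library after centring every gene on its mean over the 16 libraries (vertical axis) by week (horizontal axis), SP libraries in red to the left of DN libraries in blue. For egress and homing the SP libraries run from -0.86 to -0.18 and the DN libraries from 0.34 to 0.88, while for the immediate-early list 1 SP library of week 2 stands at 1.27.

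Checkpoint receptors were higher in SP cells for 11 of 18 measured members and lower for 1, with a median of 0.81, where 8.33% of all genes were higher. Cd101, a surface glycoprotein of terminally exhausted cells, had values of 10.75, 11.11 and 11.10 at week 2, 11.10 and 11.84 at week 4, and 10.55, 10.65 and 10.62 at week 6 in SP cells, against 10.11, 10.36 and 10.34 at week 2, 9.79, 9.74 and 9.92 at week 4, and 9.16 and 9.23 at week 6 in DN cells, a difference of 1.26 (SE 0.14, adjusted p = 4.4e-06). Cd244, an immunoglobulin-like receptor of NK cells and exhausted T cells, had a lowest, median and highest value of 11.38, 11.80 and 13.49 in SP cells, against 9.36, 10.71 and 11.14 in DN cells, a difference of 1.82 (adjusted p = 0.000238). Neither overlapped between the groups. Pdcd1, which encodes PD-1, had values of 17.14, 16.97 and 16.41 at week 2, 17.07 and 17.57 at week 4, and 17.06, 17.07 and 17.13 at week 6 in SP cells, against 16.70, 16.88 and 16.86 at week 2, 16.12, 16.09 and 15.97 at week 4, and 16.31 and 16.14 at week 6 in DN cells, a difference of 0.72 (adjusted p = 0.0261). At week 2 its values overlapped and the difference was 0.03, against 1.27 at week 4 and 0.87 at week 6. Tigit, Cd200r1 and Cd38 differed by 1.36, 1.55 and 0.85, Entpd1, the ectoenzyme CD39, by 0.96, and Cd96 and Cd160 by 0.80 and 0.94, all called. Ctla4 differed by 0.92 (adjusted p = 0.0262), a call lost without SP week 2 replicate 1, SP week 4 replicate 2, DN week 6 replicate 1 or DN week 6 replicate 2. Btla, an inhibitory receptor of naive and resting lymphocytes, was the 1 member lower, at -1.40 (SE 0.21, adjusted p = 6.87e-05). Lag3, a further inhibitory receptor, was not called, with 0.15 overall and -0.22, -0.15 and 0.82 at weeks 2, 4 and 6. The count of 11 was 9 to 11 over the 16 omissions of 1 library, 7 without week 4 and 4 with the code run as a term.

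Of 19 regulators of exhaustion and chronic stimulation 12 were higher and 1 lower in SP cells, with a median of 0.66. Of all genes 8.33% were higher. Tox, which establishes the exhausted state, differed by 0.66 (adjusted p = 0.0041), but by -0.03 at week 2. Nr4a2 and Nr4a3, nuclear receptors induced by T-cell receptor signals, differed by 1.53 (adjusted p = 0.000655) and 0.75 (adjusted p = 0.00133). Egr3 and Egr2, immediate-early factors of the same signals, differed by 1.40 (adjusted p = 3.6e-05) and 0.92 (adjusted p = 0.000421). Ikzf3, the zinc-finger factor Aiolos, differed by 0.65 (SE 0.08, adjusted p = 7.54e-06). Rbpj, Irf4, Irf8, Bhlhe40, Ikzf2 and Id2 were also higher, by 0.93, 0.80, 0.71, 0.86, 1.12 and 0.41. Nfatc2, a calcium-dependent factor upstream of several of these genes, was the member lower, at -0.54 (adjusted p = 4.49e-05). The count of 12 became 8 without week 4 and 4 with the code run as a term.

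Cytotoxic genes were higher in SP cells for 9 of 19 members and lower for none, with a median of 0.32. Of all genes 8.33% were higher. Gzmc, a granzyme, had the largest positive difference of the genes named here, 3.58 (SE 0.68, adjusted p = 0.000964). It had values of 3.35, 5.96 and 8.04 at week 2, 6.29 and 8.97 at week 4, and 6.75, 6.35 and 6.49 at week 6 in SP cells, against 1.53, 3.81 and 3.42 at week 2, 3.72, 3.52 and 3.94 at week 4, and 2.03 and 3.10 at week 6 in DN cells. SP week 2 replicate 1, at 3.35, lay below 5 DN libraries. Gzmc belongs to a cluster of similar granzyme genes, so reads could be split among copies. Gzma had values of -5.83, -6.26 and -4.64 at week 2, -4.62 and -4.56 at week 4, and -3.31, -3.32 and -3.25 at week 6 in SP cells, against -6.36, -5.42 and -6.79 at week 2, -6.11, -6.11 and -6.37 at week 4, and -6.29 and -6.16 at week 6 in DN cells, a difference of 1.72 (SE 0.28, adjusted p = 0.000204). Its difference was 0.62, 1.60 and 2.93 at weeks 2, 4 and 6, and within a week the groups overlapped at week 2 and not at weeks 4 and 6. Gzmb differed by 1.29 (adjusted p = 0.0276), Tnfsf10, the death ligand TRAIL, by 0.93 (adjusted p = 0.000537), and Fasl by 0.50 (adjusted p = 0.00209). The count of 9 fell to 4 without DN week 6 replicate 1, to 5 without DN week 6 replicate 2, to 2 without week 4 and to 3 with the code run as a term.

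Of 13 NK-type receptor genes 5 were higher and none lower, with a median of 0.80, where 8.33% of all genes were higher. Klre1, a lectin-like receptor of NK cells, had a lowest, median and highest value of 8.14, 8.93 and 9.67 in SP cells, against 6.45, 7.29 and 7.80 in DN cells, a difference of 1.80 (SE 0.30, adjusted p = 0.000283), without overlap. Fcer1g, a signalling adaptor of these receptors, differed by 1.70 (adjusted p = 0.000333), Klrd1, the CD94 chain, by 0.80 (adjusted p = 0.00332), and Klrk1, the NKG2D chain, by 1.10 (adjusted p = 0.0329). Of 19 cytokine and chemokine genes 8 were higher and 1 lower. Csf1, the macrophage growth factor, had values of 18.37, 18.35 and 17.71 at week 2, 18.73 and 18.81 at week 4, and 17.84, 18.11 and 18.15 at week 6 in SP cells, against 17.23, 16.65 and 17.31 at week 2, 16.36, 16.34 and 16.16 at week 4, and 16.08 and 16.26 at week 6 in DN cells, a difference of 1.81 (SE 0.22, adjusted p = 1.05e-05). No SP library fell to the highest DN library. Tnfsf11, which encodes RANKL, differed by 1.40 (adjusted p = 0.00338), Xcl1, a chemokine for cross-presenting dendritic cells, by 1.00 (adjusted p = 0.026), Tgfb1 by 0.64 (adjusted p = 0.000244) and Cxcl10 by 1.44 (adjusted p = 0.0153). Ccl5 was lower, at -0.75 (adjusted p = 0.00199), with the differences -1.19, -0.76 and -0.29 at weeks 2, 4 and 6. The cytokine count of 8 was 4 without DN week 6 replicate 2, 5 without DN week 6 replicate 1 or SP week 4 replicate 2, and 2 without week 4 or with the code run as a term.

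Of 23 genes of the T-cell receptor complex and its signalling 6 were higher and 1 lower, where 8.33% of all genes were higher. Cd3g and Cd8a differed by 0.84 (SE 0.10, adjusted p = 1.03e-05) and 0.64 (SE 0.08, adjusted p = 1.95e-05). Cd8a had a lowest, median and highest value of 10.06, 10.16 and 10.50 in SP cells, against 9.36, 9.48 and 9.97 in DN cells, and neither gene overlapped. Other chains of the complex did not all go the same way. Cd3e and Cd3d averaged 2.72 and 2.09 over SP libraries, against 2.35 and 1.91 over DN libraries. Cd8b1 averaged 4.45 in SP and 4.44 in DN libraries, and Cd247 5.49 and 5.65. Zap70, the receptor-proximal kinase, differed by 0.38 (adjusted p = 0.000333), and the adaptor gene Lat was lower, at -0.30 (adjusted p = 0.00307). Of 15 costimulatory receptors 4 were higher. Tnfrsf9, the activation-induced receptor 4-1BB, had values of 2.62, 2.82 and 3.17 at week 2, 3.43 and 4.12 at week 4, and 3.14, 3.13 and 3.11 at week 6 in SP cells, against 1.92, 2.60 and 2.04 at week 2, 2.09, 2.08 and 2.21 at week 4, and 1.56 and 1.62 at week 6 in DN cells, a difference of 1.29 (SE 0.17, adjusted p = 2.57e-05), without overlap. Tnfrsf1b, Cd7 and Tnfrsf18, which encodes GITR, differed by 0.55, 1.31 and 0.41. That count was 2 without SP week 4 replicate 2, and 1 without week 4 or with the code run as a term.

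Immediate-early genes respond quickly to receptor signals and to stress. They were called higher for 10 of 27 members, with a median of 0.55, and lower for none. Of all genes 8.33% were higher. Nfkbia, the inhibitor of NF-kappa-B, differed by 0.84 (adjusted p = 0.000366), Egr1 by 0.72 (adjusted p = 0.000402), Btg1 by 0.50 (adjusted p = 8.73e-05) and Junb by 0.99 (adjusted p = 0.0242). The mean level of the list reached 1.27 in SP week 2 replicate 1 and 0.58 in SP week 4 replicate 2, against -0.06 to 0.39 in the other 6 SP libraries and -0.80 to 0.24 in the DN libraries. Of 20 heat-shock and stress genes 6 were higher, led by Hspa5, a chaperone of the endoplasmic reticulum (0.44, adjusted p = 0.00119), and Atf4, a factor of the stress response (0.38, adjusted p = 0.00763). The chaperone gene Dnaja1 differed by 0.31, and its 3' end overlaps a gene on the opposite strand. This stress list had medians of 0.18, 0.63 and -0.11 at weeks 2, 4 and 6, and its count of 6 became 3 with the near-identical libraries averaged, 2 or 3 without any 1 of 8 libraries, and 0 without week 4 or with the code run as a term. The 8 are SP week 2 replicate 2, SP week 4 replicate 2, SP week 6 replicates 1 and 2, DN week 2 replicate 2, DN week 4 replicate 1 and DN week 6 replicates 1 and 2. Of 34 proliferation genes 6 were higher and the rest were not called, where 8.33% of all genes were higher. Among the 6 were Mki67 (0.43, adjusted p = 0.0214), Cenpa (0.64, adjusted p = 0.00107) and the spindle gene Nusap1 (1.15, adjusted p = 0.00448). The proliferation count was 3 without SP week 4 replicate 2 and 1 without week 4 or with the code run as a term.

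Interferon-stimulated genes were lower in SP cells for 12 of 31 members and higher for none, with a median of -0.35. Of all genes 8.64% were lower. Samhd1, a nucleotide hydrolase that restricts viruses, had values of 7.77, 7.76 and 7.41 at week 2, 7.30 and 7.14 at week 4, and 7.29, 7.36 and 7.41 at week 6 in SP cells, against 8.38, 8.18 and 8.47 at week 2, 7.91, 7.91 and 8.07 at week 4, and 8.10 and 8.16 at week 6 in DN cells, a difference of -0.74 (SE 0.07, adjusted p = 1.63e-06), without overlap. Its difference was nearly equal at the 3 weeks, at -0.70, -0.74 and -0.78. Igtp and Gbp2, interferon-induced GTPases, differed by -0.73 (adjusted p = 3.65e-05) and -0.77 (adjusted p = 0.000488), and Oas2 and Oasl2, which sense double-stranded RNA, by -1.30 (adjusted p = 0.00145) and -0.95 (adjusted p = 0.00257). The median of the list was -0.45, -0.04 and -0.50 at weeks 2, 4 and 6, and the count was 13 without week 4 and 2 with the code run as a term.

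Of 14 genes of TGF-beta response, 2 were lower and 1 higher (21.4% called). Of all genes 17.0% were called, 8.64% lower and 8.33% higher. Smad3, which carries the TGF-beta signal to the nucleus, had a lowest, median and highest value of 3.28, 3.63 and 3.95 in SP cells, against 4.23, 4.85 and 4.99 in DN cells, a difference of -1.20 (SE 0.13, adjusted p = 2.31e-06), without overlap. Smad4, its partner, differed by -0.26 (adjusted p = 0.0108) and Skil, a feedback inhibitor, by 0.23 (adjusted p = 0.03), the last of which was lost without any 1 of 5 libraries (SP week 4 replicate 1, SP week 6 replicate 3, DN week 2 replicate 3, DN week 4 replicate 1 or DN week 6 replicate 1). Of the Bcl2 family, 11 genes, Bcl2l11, which encodes the death-promoting BIM, had values of 11.20, 11.47 and 11.64 at week 2, 11.60 and 11.75 at week 4, and 11.29, 11.28 and 11.32 at week 6 in SP cells, against 10.84, 10.80 and 11.05 at week 2, 10.58, 10.55 and 10.76 at week 4, and 9.95 and 10.03 at week 6 in DN cells, a difference of 0.96 (SE 0.09, adjusted p = 1.64e-06). Every SP library stood above every DN library. Bbc3, which encodes the death-promoting PUMA, was lower, at -0.65 (adjusted p = 0.00617). Of 13 effector memory regulators 5 were lower and 1 higher. Beside S1pr5 and Ly6c2, the lower ones were Runx1 (-0.62), Rap1gap2 (-1.19) and Eomes (-0.63), a T-box factor of memory and NK cells, and Id2 was higher. Eomes missed the threshold without SP week 4 replicate 2, DN week 4 replicate 1, DN week 4 replicate 2 or DN week 6 replicate 1, and with the near-identical libraries averaged.

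Of 65 measured genes in the 3 metabolic lists, 10 were called (15.4%), against 17.0% of all genes. Of 23 genes of glycolysis and hypoxia 4 were lower, led by Vegfa (-0.97, adjusted p = 0.0155) and Pdk1, a kinase that keeps pyruvate from mitochondria (-0.41, adjusted p = 0.0261). That count was 0 to 2 without DN week 6 replicate 1 or 2 or SP week 4 replicate 1 or 2. None of 21 nuclear-encoded genes of oxidative phosphorylation was called by limma, with 2 higher and 1 lower at an unadjusted p below 0.05. In the sterol and lipid list of 21 genes 2 were higher and 4 lower (28.6% called). The sterol synthesis gene Hmgcs1 was higher (0.54), and Fabp5, Plin2, a lipid-droplet coat, Scd1 and Scd2 were lower (-1.32, -0.77, -1.29 and -0.29). Of 8 Gimap GTPase genes Gimap1 was higher (0.32). Among 14 S100, annexin and galectin genes S100a11 was higher (0.40) and S100a10 lower (-0.38), and S100a11 differed by -0.01, 1.21 and 0.01 at weeks 2, 4 and 6. The call of S100a10 was lost without any 1 of 11 libraries. Of 25 ribosomal protein genes Rps18 was lower, at -0.23 (adjusted p = 0.0446). This gene has many processed copies, and the call was lost without any 1 of 12 libraries.

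Among the 10 called genes with the largest positive difference and the same sign at each week, beside Gzmc and Itgae, were Fam174b, Adora3 and Gpr34. Fam174b, a membrane protein gene, had a lowest, median and highest value of 20.95, 21.58 and 21.89 in SP cells, against 17.57, 19.63 and 20.58 in DN cells, a difference of 2.27 (SE 0.24, adjusted p = 2.31e-06). Its 3 lowest DN libraries were those of week 4, as they were for Cstad, Btbd8 and Pon3. Adora3, the adenosine A3 receptor, differed by 2.21 (adjusted p = 0.000462) and Gpr34, a lysophosphatidylserine receptor, by 1.96 (adjusted p = 0.000296), both without overlap. Rasd2, Ly6g5b, Cstad, Btbd8 and Pon3 differed by 2.34, 2.05, 2.04, 1.97 and 1.92, with overlap. Among the 10 most negative, beside S1pr5, S1pr1, Klf2 and Lef1, was Pde2a, a cyclic-nucleotide phosphodiesterase, with a lowest, median and highest value of -0.19, 0.23 and 1.67 in SP cells, against 2.61, 3.21 and 3.56 in DN cells, a difference of -2.69 (SE 0.27, adjusted p = 2.03e-06). The 3' end of Pde2a overlaps a predicted gene on the same strand. Cmah, the enzyme that makes N-glycolylneuraminic acid, had a lowest, median and highest value of -0.13, 0.70 and 1.41 in SP cells, against 1.82, 3.16 and 3.40 in DN cells, a difference of -2.29 (SE 0.22, adjusted p = 1.74e-06). Neither Pde2a nor Cmah overlapped between the groups. Dmrta1, Trim30c and Ankrd35 differed by -2.94, -2.33 and -2.27, and the identifier AC136147.1, not matched to an annotated position, by -2.59. Ankrd35 differed by -0.73, -4.34 and -1.74 at weeks 2, 4 and 6. In the limma fit with the code run as a term, Rasd2, Dmrta1 and Ankrd35 missed the threshold (adjusted p = 0.0678, 0.0512 and 0.279). Trim30c belongs to a family of close copies.

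Of 36 measured markers of other cells the sort could hold, 5 were called (13.9%), against 17.0% of all genes, but the lists differed. None of 11 myeloid, 4 B-cell, 6 epithelial and 2 erythroid genes was called by limma (medians -0.00, 0.34, -0.09 and -0.20), and at an unadjusted p below 0.05 the numbers were 1, 0, 2 and 0. Of 4 stromal and endothelial genes Col1a2 was lower (-0.97), a call lost without any 1 of 11 libraries. The mean level of the myeloid list ran from -1.19 to 0.79 in SP libraries and from -0.77 to 0.51 in DN libraries, and that of the epithelial list from -0.70 to 0.32 in SP libraries and from -1.22 to 1.55 in DN libraries. Of 6 CD4 and regulatory T-cell genes 3 were higher and none lower, with a median of 0.80, where 8.33% of all genes were higher. They were Il2ra, Ikzf2 and Ctla4, at 0.90, 1.12 and 0.92. Activated CD8 cells also express all 3, and which cells these differences came from was not tested. Cd4 and Foxp3, the defining genes, were not called, at 0.09 and 0.70, and Foxp3 differed by -0.21, 2.82 and -0.50 at weeks 2, 4 and 6. The mean level of that list ran from -0.13 to 0.73 in SP libraries and from -0.81 to 0.39 in DN libraries. Of 3 gamma-delta T and NK genes Eomes was lower, and Tcrg-C2 and Klrb1c were not called, at 1.44 and 0.51. At an unadjusted p below 0.05, the lists with no call in a direction had 0 genes higher for egress, 0 higher for naive and memory regulators, 0 higher for interferon-stimulated genes, 0 lower for cytotoxic genes, 0 lower for NK-type receptors and 1 lower for immediate-early genes. The part of other cells in the lists above was not tested.

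Taken by week, limma called 49 genes at week 2 (0.464%), 1438 at week 4 (13.6%) and 319 at week 6 (3.02%). Of these, 3 (0.0284%) were higher and 46 (0.436%) lower at week 2, 930 (8.81%) and 508 (4.81%) at week 4, and 103 (0.975%) and 216 (2.05%) at week 6. After quantile normalization the higher and lower counts were 10 and 41 at week 2, 776 and 631 at week 4, and 134 and 167 at week 6. The week 4 count was 810 with the near-identical DN libraries averaged, 827 without DN week 4 replicate 1, 809 without DN week 4 replicate 2 and 294 without SP week 4 replicate 2. At week 6 it was 70 without DN week 6 replicate 1, 74 without DN week 6 replicate 2 and 137 to 158 without SP week 6 replicate 3, 1 or 2. At week 2 it was 0, 3, 5 and 8 without DN replicate 1, SP replicate 3, SP replicate 1 and DN replicate 3. The number of libraries and their spread differ between weeks, so these counts do not rank the weeks. The difference at week 6 was tested against that at week 2 directly, and limma called 0 genes (0%), with 454 at an unadjusted p below 0.05. Checkpoint receptors had median differences of 0.25, 0.93 and 0.95 at weeks 2, 4 and 6, naive and memory regulators -0.27, -0.61 and -0.70, and egress and homing -0.69, -0.96 and -1.29. Among called genes at week 2, S1pr1 differed by -2.74, S1pr5 by -4.11, Klf3 by -1.84 and Itgae by 2.52. The genes called lower at week 2 also held Krt15, Ehf and Wfdc18, genes known from epithelium and named here after their values were seen (-2.44, -2.43 and -2.89), beside a week 2 median of -0.14 for the epithelial list.

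**Figure D4:**
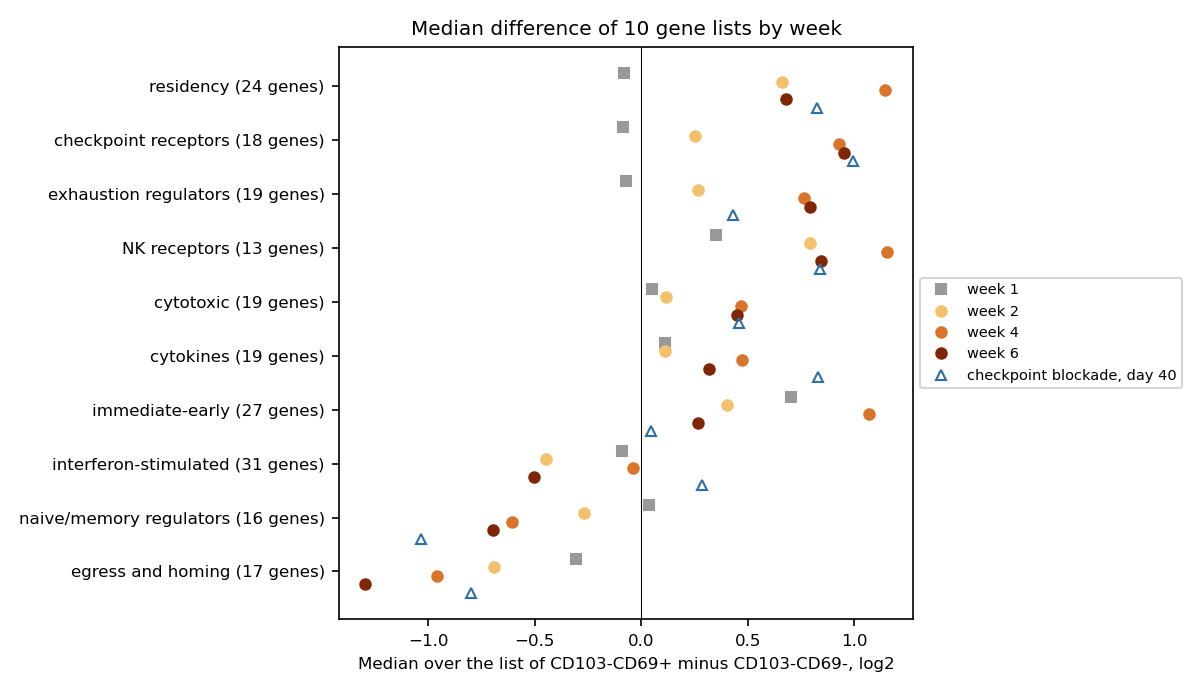
Median over each of 10 gene lists of the log2 difference SP minus DN (horizontal axis), with circles for weeks 2, 4 and 6, grey squares for week 1 and open triangles for day 40 under checkpoint blockade. For residency the weeks 2, 4 and 6 lie at 0.66, 1.14 and 0.68 and week 1 at -0.08, and for the interferon-stimulated list the blockade triangle lies at 0.29, on the other side of 0 from the untreated weeks.

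At week 1, 767 genes were called between SP and DN cells (7.26%), 579 higher (5.48%) and 188 lower (1.78%). The difference of weeks 2 to 6 minus that of week 1 was called for 690 genes (6.53%), 155 positive (1.47%) and 535 negative (5.07%). That split was 196 and 339 with quantile-normalized values and 222 and 387 with libraries rescaled to 1 median. Klf2 differed by -0.13 at week 1, Tcf7 by 0.30, S1pr1 by -1.06 and Cd69 by 0.86. For Klf2, Tcf7 and S1pr1 the difference was more negative later, by -2.47, -1.81 and -2.16 (adjusted p = 0.0332, 0.00375 and 0.0403). At week 1 the epithelial list had a median of 3.83 between the subsets, with Krt8 at 4.06 and Epcam at 3.60, against -0.14, 0.58 and -1.31 at weeks 2, 4 and 6. Its part in the difference from week 1 was not tested.

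DP cells of weeks 2 to 6 differed from SP cells in 44 genes (0.417%), 11 higher (0.104%) and 33 lower (0.312%) in DP cells. After quantile normalization 10 were higher and 15 lower. This comparison shares the SP libraries with that of SP and DN cells. For S1pr1, Klf2, Lef1 and Tcf7 the DP minus SP difference was 0.36, 0.89, 0.25 and 0.40, none of which was called, and for Itgae it was 1.21 (SE 0.33, adjusted p = 0.091). Ikzf3, Tox, Fasl and Cxcr6 were called and lower in DP than in SP cells, at -0.43, -0.71, -0.49 and -0.60. These 4 values are DP minus SP. With a replicate block in the limma fit only Ikzf3 of the 4 stayed called (adjusted p = 0.014). Tox, Fasl and Cxcr6 then missed the threshold (adjusted p = 0.0522, 0.0522 and 0.0636). Both measured erythroid markers, Alas2 and Hba-a2, were also called lower in DP cells, at -1.75 and -3.75 (adjusted p = 0.0445 and 0.0113). With the replicate block the adjusted p was 0.0636 for Alas2, which missed the threshold, and 0.014 for Hba-a2. The mean level of these markers, centred over the 18 libraries, ran from -3.87 to 0.66 in DP libraries and from -1.48 to 3.38 in SP libraries, and its part in the DP and SP difference was not tested. The count of 44 was 8 without SP week 6 replicate 1 or 3, 10 without SP week 2 replicate 1, 14 without SP week 6 replicate 2, 25 without SP week 4 replicate 2, 77 without DN week 2 replicate 3 and 114 without SP week 2 replicate 2.

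The checkpoint-blockade libraries entered none of the untreated comparisons above and come from a table normalized on its own. There SP and DN cells differed in 515 of 13458 genes (3.83%), 332 higher (2.47%) and 183 lower (1.36%). After quantile normalization 278 were higher and 271 lower. That count was 1438 without SP replicate 1, and the spread behind it rests on residuals of rank 2. Of 869 untreated genes called higher and present in both tables, 666 (76.6%) were higher in SP cells under blockade, against 55.1% of all 10187 shared genes, and 125 were called higher and 1 lower. Of 872 called lower, 562 (64.4%) were lower under blockade, against 44.9% of all, with 98 called lower and 11 higher. S1pr1 had 7.08, 6.82 and 6.68 in SP cells, against 11.44 and 11.34 in DN cells, a difference of -4.53 (adjusted p = 0.00735). Klf2 had 7.04, 7.46 and 7.17 in SP cells, against 10.24 and 10.39 in DN cells, a difference of -3.09 (adjusted p = 0.00795). Tcf7 had 8.95, 8.79 and 9.09 in SP cells, against 11.47 and 11.42 in DN cells, a difference of -2.50 (adjusted p = 0.00782). For all 3 genes the SP libraries lay below the DN libraries there too. Csf1 and Gzma differed by 2.67 and 2.58 (adjusted p = 0.00735 and 0.00795), and Itgae by 2.11 (adjusted p = 0.0283).

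Several genes had a smaller difference, or one of opposite sign, in the blockade table, whose levels cannot be set against those of the untreated table. Cd69 had 11.98, 11.86 and 11.89 in SP cells, against 11.96 and 11.92 in DN cells, a difference of -0.03, although the subsets were sorted by CD69. Il7r had 16.38, 16.29 and 16.41 in SP cells, against 16.39 and 16.36 in DN cells, a difference of -0.01, and Cxcr3 differed by -0.03. Ccr2 was higher in SP cells under blockade, with 15.83, 16.07 and 15.92 in SP cells, against 14.90 and 14.98 in DN cells, a difference of 1.00 (adjusted p = 0.0205). It was the 1 named gene called in opposite directions in the 2 tables. Bcl2l11 differed by -0.44 and was not called, while Lag3 differed by 1.40 (adjusted p = 0.0451). Of the 47 named genes that were higher in untreated SP cells and were measured under blockade, 40 were higher there, 17 of them called, and of the 35 lower 25 were lower, 11 of them called. Under blockade 55.1% of all shared genes were higher and 44.9% lower in SP cells, with a median of 0.03. In that table limma called 2.47% of genes higher and 1.36% lower. All 18 measured cytotoxic genes had a positive difference under blockade (median 0.46), while 27 of 31 interferon-stimulated genes were positive (median 0.29, against -0.35 in the untreated tumors) and all 25 ribosomal genes were negative (median -0.37). limma called 8 of the cytotoxic and 2 of the interferon-stimulated genes higher, and after quantile normalization 18 and 23 were positive. Markers of other cells also had positive differences there. All 5 measured epithelial markers were positive (median 1.43, 1 called), as were 9 of 11 myeloid markers (median 0.75), of which limma called 0, with 8 at an unadjusted p below 0.05. The mean level of the epithelial list ran from 0.285 to 0.705 in SP libraries and from -0.836 to -0.738 in DN libraries, and that of the myeloid list from 0.0318 to 0.51 in SP libraries and from -0.331 to -0.318 in DN libraries. Their part in these values was not tested. Whether the difference between SP and DN cells changed with blockade was not tested, because the tables were normalized separately and tumor age differed.

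**Figure D5:**
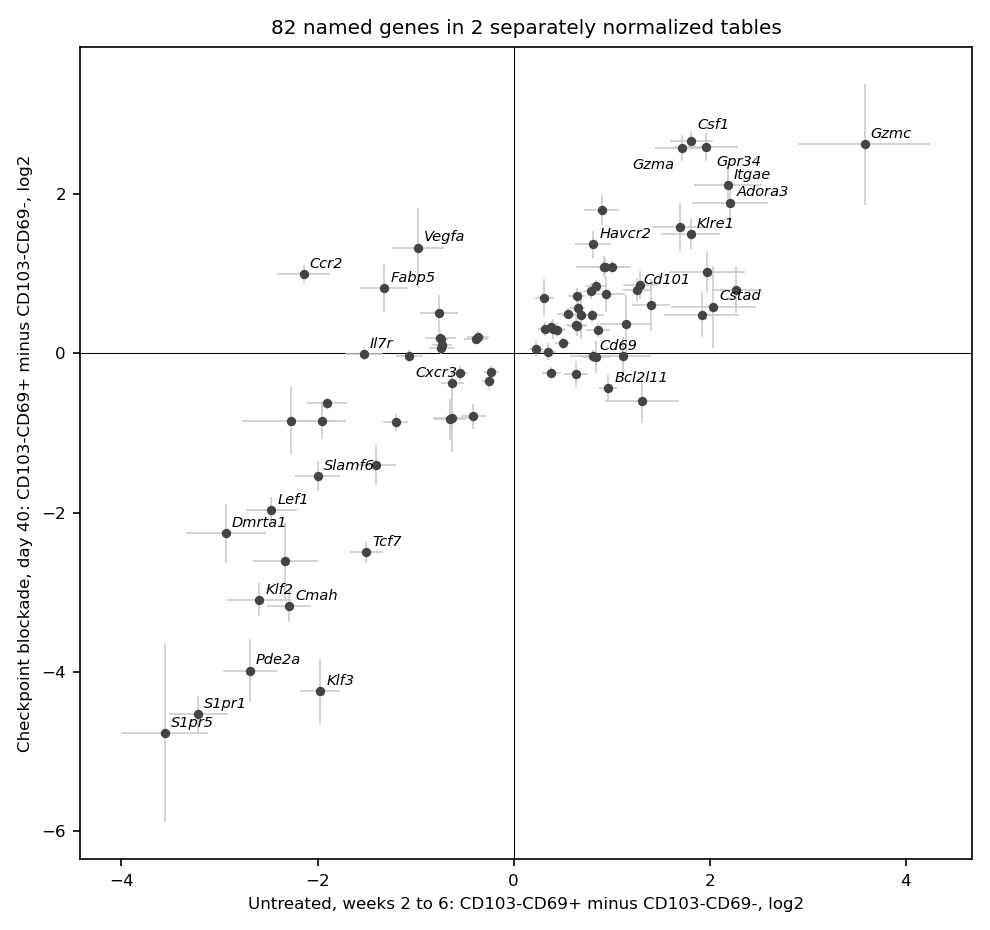
Log2 difference SP minus DN of 82 named genes in untreated tumors of weeks 2 to 6 (horizontal axis) and under checkpoint blockade at day 40 (vertical axis); bars are standard errors. S1pr1, S1pr5, Klf2, Klf3, Lef1 and Tcf7 lie in the lower left, Gzmc, Csf1, Gzma and Itgae in the upper right, and Ccr2 in the upper left at -2.14 and 1.00.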

How the data were processed

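Sorted CD8+ T cells were profiled by QuantSeq from 10 ng of total RNA, per the labels' protocols. Per the submitters' processing notes, HISAT2 and HTSeq were used with mm10, and no version or counting option is given there. The authors deposited 2 tables of normalized values, which were read as log2 because they hold negative values. Gene means of the untreated table ran from -28.0 to 39.4, so the values are not plain log2 counts. Whether a difference of 1 is a 2-fold change was not tested. The log base and normalization method are not given in the sources used here. Residuals of the untreated table from its 15 group means had a rank of 18 where the design allows 28, and those under blockade 2 where it allows 5, so residual degrees of freedom were multiplied by that ratio, 0.643 and 0.4, and residual variances divided by it. limma 3.58.1 (R 4.3.3, statmod 1.5.0) fitted group means to all 43 untreated libraries with trend and robust options. No filter was used, and p-values were adjusted over all genes of a table. The fit was also run on simulated data of the same shape, with independent noise and random residual directions removed. That simulation held no code runs, its outcome is not reported here, and it lends no weight to the p-values. The comparison, its gene lists and tests were chosen with earlier results of these data known. Named genes were Cd69, Itgae, Havcr2 and Lef1, the up to 3 called genes of each list with the smallest p, and the 10 most positive and 10 most negative called genes with the same sign at each week, predicted genes left out, 86 in all. Some of these genes are not reported here. Other list members were chosen to describe their list after their values were seen. The 3' ends of Dnaja1 and Eomes overlap a gene on the opposite strand.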

Additional observations from a re-analysis of the deposited data

Results flagged for a closer look

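For 24 of the 86 named genes the SP minus DN difference of weeks 2 to 6 differed from that of week 1 by limma's test of the difference, with adjustment over all genes. Of all genes 6.53% were called in that test. The named genes were chosen by the difference at weeks 2 to 6, which is part of the test, so their count is not read against that share. The values here are that change. Genes whose difference became more negative included the egress and stem-like genes Klf2 (-2.47), S1pr1 (-2.16), Tcf7 (-1.81) and Lef1 (-1.76, adjusted p = 0.0499), the integrin gene Itgb7 (-1.65), Smad3 (-0.94), Runx1 (-1.54), Samhd1 (-0.80), Pde2a (-2.40), Cmah (-1.73), AC136147.1 (-3.90), Bbc3 (-1.88), Rps18 (-0.59) and Vegfa (-3.56). Genes whose difference became more positive were Cd101 (1.34), S100a11 (1.29), Tnfrsf9 (1.27), Litaf (1.19), Inpp4b (1.06), Tnfrsf1b (1.00), Cd96 (0.90), Bcl2l11 (0.67), Zap70 (0.63) and Ikzf3 (0.62). Vegfa differed by 2.59 at week 1, where the epithelial list had a median of 3.83. Week 1 rests on 3 SP and 2 DN libraries. Outlying libraries were not searched for within groups, since each week and subset has 2 or 3.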

How the results depend on the processing

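The count of 1792 genes ranged from 1309 to 1802 over the 16 omissions of 1 library, was 1435 with the near-identical DN libraries averaged (an alternative chosen after seeing the data) and 1924 and 1864 after quantile normalization and median rescaling. It was 3323 with design-based degrees of freedom, 354 with the code run as a term, 22 inside codes 46 to 75 and 720 without week 4. With design-based degrees of freedom, week 2 gave 624 genes, week 4 3018, week 6 1130, week 6 against week 2 17, DP against SP 1044, weeks 2 to 6 against week 1 2054 and blockade 5217. A fit of only the 16 libraries compared gave 1358 genes over weeks 2 to 6, 604 higher and 754 lower, with 1239 among the 1792. There 5 of the 86 named genes missed the threshold. With the code run as a term, weeks 2, 4 and 6 gave 1, 549 and 151 genes and DP against SP 27, where quantile normalization gave 25. Averaging gave 38 genes at week 2, 810 at week 4 and 267 at week 6. It gave 30 for DP against SP and 538 for weeks 2 to 6 against week 1. List counts were then 9 naive and memory regulators, 11 interferon-stimulated genes, 4 cytokine receptors and 3 glycolysis genes lower. Higher were 8 cytotoxic, 7 cytokine, 3 costimulatory and 5 T-cell receptor genes. Skil, Rps18 and Col1a2 were then not called. Leaving out 1 library gave 0 to 71 at week 2, 294 to 1521 at week 4, 70 to 340 at week 6, 0 to 1 for week 6 against week 2, 8 to 114 for DP against SP, 540 to 747 for weeks 2 to 6 against week 1 and 397 to 1438 under blockade. The causes were not tested.

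Of the 86 named genes 56 kept their call with the code run as a term and 30 missed the threshold in the same direction, and without week 4 the numbers were 57 and 28. Directions reversed inside codes 46 to 75 for Dnaja1 (-0.24) and S100a11 (-0.083), and without week 4 for S100a11 (-0.0017). The median of the TGF-beta list, 0.07, became -0.22 inside codes 46 to 75, -0.12 without week 4, and -0.000795 to 0.083 over the omissions of 1 library, the lowest without SP week 4 replicate 2.

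Replicate numbers were not taken to pair the samples, as the labels do not say what they mark. Residuals of equally numbered SP and DN libraries correlated between -0.16 and 0.03 (7 pairs), and 3 of 14 libraries correlated best with their own number. For DP and SP libraries the range was 0.01 to 0.86, above 0.1 in 3 of 8 pairs and best with the own number in 11 of 16 libraries, and for the 2 blockade pairs it was 0.85 and 0.92. A replicate block gave 1781 genes over weeks 2 to 6, 15 for DP against SP and 1213 under blockade. In the SP against DN test over weeks 2 to 6 it moved only Rps18 of the named genes across the threshold. In the DP against SP test the calls of Tox, Fasl, Cxcr6 and Alas2 were lost.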
